A study of Mus musculus with 4 samples.

Results

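Chromatin modifiers and remodelers are the proteins that write, remove and read chemical marks on histones and DNA, or move nucleosomes with the energy of ATP. The genes described here were chosen by symbol: names of the histone lysine demethylase (Kdm), methyltransferase (Kmt, Setd), acetyltransferase (Kat), deacetylase (Hdac), SWI/SNF (Smarc, Arid), CHD, bromodomain (Brd), PHD finger (Phf), PRDM, Polycomb, DNA methylation and histone families and of related single genes, and an average level of at least 1 over the 4 samples. Of the 5282 genes in the deposited table, 50 carried such a name and 48 reached that level. 47 of the 48 are protein-coding. Prdm16os is the exception, a long non-coding RNA gene that lies beside Prdm16 on the opposite strand. Histone gene names under the pattern, such as those starting with Hist1 or H2af, had no row, so the set holds no histone gene. Kdm5d, which the rule sets aside, had no row either. At the edge of the level rule, Arid3b with a mean level of 1.94 was the member just inside, and Prdm9 at 0.8 and Prdm6 at 0.405 lay just outside.

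RNA came from corpus callosum and cortex tissue of mice at postnatal day 15. Oligodendrocytes, the cells that make myelin, are abundant in the corpus callosum, a tract of axons between the hemispheres. The groups were Pdgfra-creER;SmoM2 (2 samples, SmoM2 below) and wild type littermates (2 samples, WT below), and both genotypes received tamoxifen on postnatal days 5 to 7. Smoothened is the membrane protein that relays the hedgehog signal, and SmoM2 is its always-active mutant form. Pdgfra-creER is a tamoxifen-dependent recombinase driven by Pdgfra, a gene of oligodendrocyte precursors and also of fibroblasts, so the active protein is not limited to the oligodendrocyte lineage by that promoter. The labels do not say whether each sample was a separate animal or a pool, and p-values may then measure technical spread. The study sought genes that lie downstream of Smoothened. WT replicate 2 stood apart from the other libraries in sex-linked transcripts, with Xist listed at 0 and Y-linked Ddx3y at 11.9, so values without it are given beside the totals and the X-linked genes.

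Several of these proteins are textbook regulators of oligodendrocyte development. Histone deacetylases are needed for precursors to leave the progenitor state, the SWI/SNF ATPase encoded by Smarca4 and the remodeler encoded by Chd7 act with lineage transcription factors at myelin genes, and Polycomb and DNA methylation enzymes silence genes of other fates. Methylation of histone H3 by the Setd1 and Kmt2 family marks active promoters and enhancers, and the Kdm enzymes remove methyl groups from histones.

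The chromatin genes passed the test about as often as all listed genes did. In the authors' deposited table, 18 of the 48 (37.5%) had adjusted p-values no higher than 0.05, and the share was 38.9% over the 4845 listed genes of the same minimum level. "Rose", "fell" and "passed" are used below for that threshold. 13 rose (27.1%, against 22.0% of all listed genes) and 5 fell (10.4%, against 16.9%). The table holds genes with unadjusted p-values up to 0.05 and no others, so a direction without a pass says little by itself. Of all 48, 34 were higher in SmoM2 and 14 lower, that is 70.8% higher against 52.5% of the listed genes. The median log2 fold change was 0.28 over the 48 and 0.23 over the listed genes, with a range of -0.61 (Kdm7a) to 0.78 (Chd7) over the 48 in the authors' deposited table. Levels did not overlap between groups for 33 genes in the higher direction (68.8% of the 48, against 49.5% of all listed genes) and for 10 in the lower direction (20.8%, against 35.5%). Within a direction the shares were alike: 97.1% of the higher chromatin genes and 93.8% of all higher genes were separated, and 71.4% and 74.7% of the lower ones. The share that passed and the shares separated within a direction were near the background of a selected table. The share in the higher direction was above that background, and this gap was not tested. None of these shares is a result about chromatin genes as a class, and the values of single genes are given for that reason. By limma, fitted to log2(level + 1) over the 4845 genes, the median log2 difference was 0.35 over the 48 and 0.25 over all. Without WT replicate 2 the median over the 48 was 0.38. With limma's own adjusted p-values the same threshold called none of the 48 and 0.124% of all fitted genes. Without adjustment it called 29 of the 48, against 55.5% of all fitted genes.

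**Figure D1:**
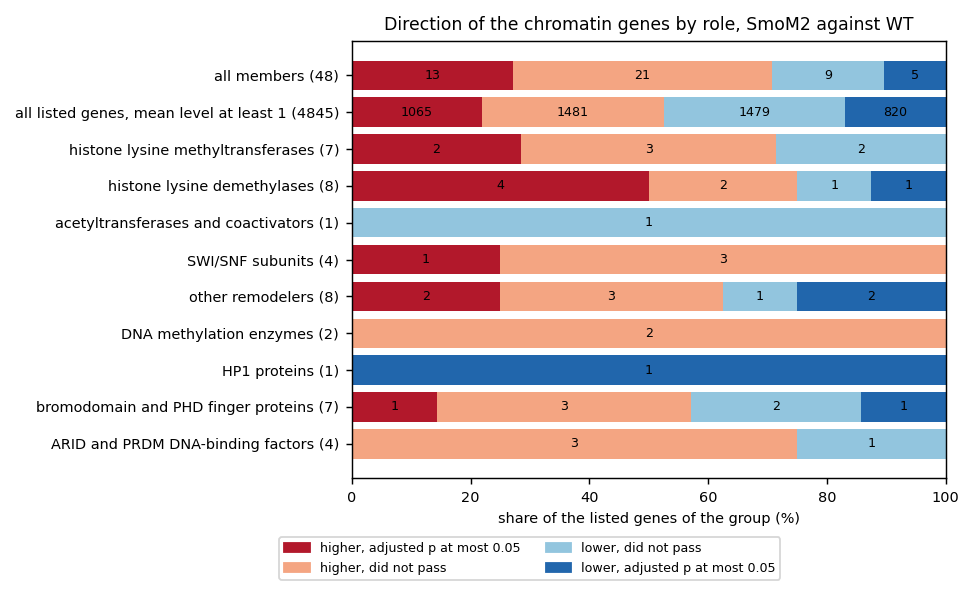
Share of genes (%, x axis) that were higher or lower in SmoM2, for the 48 chromatin genes, for all 4845 listed genes that averaged at least 1, and for the roles shown (number of genes in parentheses). Numbers in the bars count genes, and dark colours mark genes that passed in the authors' deposited table: 13 chromatin genes rose and 5 fell.

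Direction followed the base composition of the transcript, among the chromatin genes and in the whole table. GC content was taken from the longest annotated transcript of each gene. Among all listed genes, 4.69% of the most GC-poor quintile (31.9 to 42.4% GC) were higher in SmoM2, against 97.5% of the most GC-rich quintile (57.6 to 74.7% GC). The 5 chromatin genes in the GC-poor quintile were all lower and 4 of them fell. The 12 in the GC-rich quintile were all higher and 7 rose. In the 2 quintiles above 53.4% GC all 23 chromatin genes were higher, and in the 2 quintiles below 47.4% GC 10 of 11 were lower. Kdm6a, at 42.5% GC, was the exception there. The middle quintile was mixed, with 10 higher and 4 lower. Across the 48 genes, which share the same 4 libraries, Pearson's r between GC content and the authors' log2 fold change was 0.75 (Spearman's rho 0.66). Over 4800 listed genes with a transcript the values were 0.42 and 0.63, and genes are not independent replicates. Transcript length showed no such relation over the 48 genes (r = 0.02). The GC-rich quintile lay above its gene means by 0.23 and 0.25 on the log2 scale in SmoM2 replicates 1 and 2 and below them in WT, at -0.26 and -0.22. The GC-poor quintile was less even, at -0.09 and -0.18 in SmoM2, against 0.03 and 0.23 in WT. On this side WT replicate 1 lay close to its gene means.

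The 2 ends of this range can be read in the coding sequence. Below are 120 bases from the middle of the coding sequence of Kdm4b (bases 1570 to 1689 of 3261) and Kdm6b (2404 to 2523 of 4926), which rose, and of Smarca5 (1519 to 1638 of 3156) and Cbx3 (217 to 336 of 552), which fell. They were read from GENCODE M21 transcripts on GRCm38, 5′ to 3′ on the coding strand, with G and C in capitals. They were chosen after the values were seen, as clear examples of the contrast: 77 of 120 in Kdm4b, 73 in Kdm6b, 47 in Smarca5 and 41 in Cbx3. Over the same stretch of all genes that passed the counts overlapped, at 55 to 77 (median 66.0) in the 13 that rose and 41 to 61 (median 47.0) in the 5 that fell. Phf20l1, which fell, had 61, more than Chd7 and Chd5, which rose, with 55 and 57.
Kdm4b: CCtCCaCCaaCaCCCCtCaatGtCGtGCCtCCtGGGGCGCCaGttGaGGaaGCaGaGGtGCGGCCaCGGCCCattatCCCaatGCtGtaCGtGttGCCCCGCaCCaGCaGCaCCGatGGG
Kdm6b: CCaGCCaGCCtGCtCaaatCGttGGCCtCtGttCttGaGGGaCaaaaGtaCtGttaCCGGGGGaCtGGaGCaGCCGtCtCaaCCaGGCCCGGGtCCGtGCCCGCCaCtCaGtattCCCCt
Smarca5: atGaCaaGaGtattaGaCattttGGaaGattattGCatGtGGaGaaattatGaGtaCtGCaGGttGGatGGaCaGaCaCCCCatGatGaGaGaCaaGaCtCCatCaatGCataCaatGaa
Cbx3: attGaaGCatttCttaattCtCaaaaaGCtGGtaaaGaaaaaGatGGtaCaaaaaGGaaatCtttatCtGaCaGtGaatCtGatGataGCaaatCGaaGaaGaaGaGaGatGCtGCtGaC

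Over whole coding sequences the 34 higher genes had a median GC content of 58.1% (44.0 to 66.1%) and the 13 lower protein-coding genes 47.8% (42.0 to 54.9%). At the third codon position, where a base often leaves the amino acid unchanged, the medians were 66.0% and 47.8%, and in 3′ untranslated regions 50.8% and 36.4%. When each library was corrected for its trend on GC content and transcript length over all listed genes, the median limma log2 difference of the 48 went from 0.35 to 0.08, and that of all genes fitted fell by 0.15, to 0.11. The share of all fitted genes above 0 went from 53.5% to 67.9%. 14 of the 48 changed sign, 30 were then above 0 and 18 below, and limma again called none. Non-overlapping levels went from 33 to 19 in the higher direction and from 10 to 7 in the lower one. No share over all listed genes is given after the correction, so these counts say nothing particular to chromatin genes. The trend was fitted on genes that the authors had already selected for a difference, so the correction may remove differences of other kinds as well. Corrected values are given beside most genes below, whose coordinates are those of GENCODE M21 on GRCm38.

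**Figure D2:**
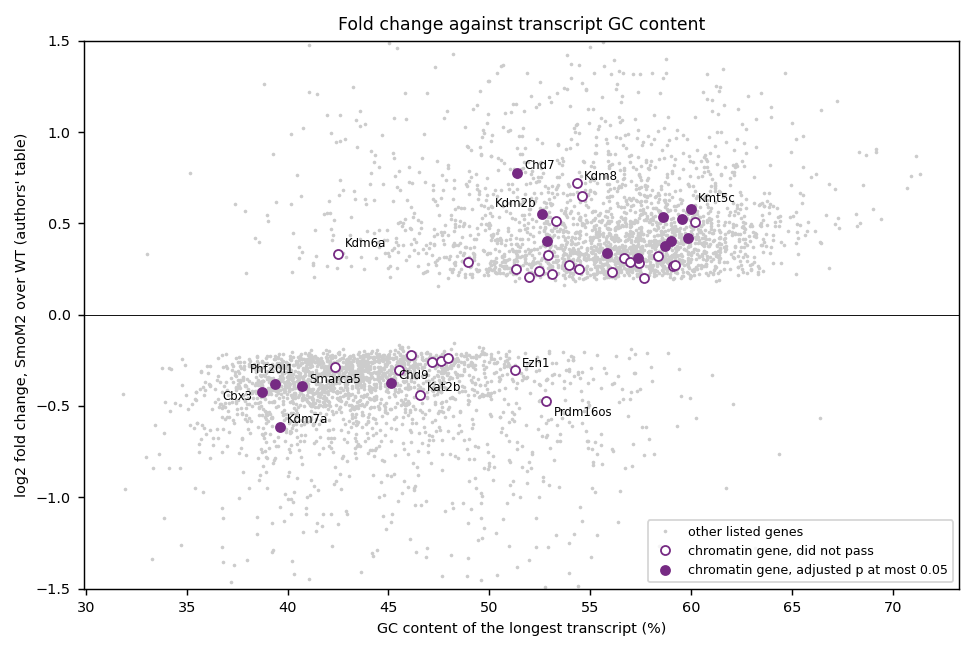
Log2 fold change of SmoM2 over WT from the authors' deposited table (y axis) against the GC content of the longest transcript (%, x axis). Grey points are listed genes that averaged at least 1, purple circles 46 of the 48 chromatin genes (filled where the gene passed in the authors' deposited table); 158 genes lie beyond the y axis, none of them a chromatin gene. Chromatin genes above 53.4% GC are all higher in SmoM2, and Kdm6a is the one below 47.4% GC that is higher.

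Among histone lysine methyltransferases, 7 were listed, 5 were higher and 2 rose. Kmt5c (chr7:4740115-4747514), which encodes a methyltransferase of histone H4 in heterochromatin, read 18.8 and 16.5 under SmoM2 and 12.1 and 9.56 under WT. Both SmoM2 samples lay above both WT samples (adjusted p = 0.0219, authors' deposited table). Its limma log2 difference was 0.66 ± 0.16 (SE), and the difference was 0.27 after the GC and length correction. Setd1b (chr5:123142193-123168629), a catalytic subunit of a COMPASS complex that methylates histone H3 at active promoters, read 7.48 and 6.86 in SmoM2, against 4.44 and 6.16 in WT. It rose, but the size depended on the WT library. The limma log2 difference was 0.39 ± 0.20 (SE), 0.19 without WT replicate 1 and 0.59 without WT replicate 2, and -0.06 after the correction.

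The other catalytic subunits of that family in the table were higher too and did not pass. Setd1a, the paralog of Setd1b, had a mean of 11.7 ± 1.03 in SmoM2, against 9.12 ± 0.488 in WT (SD, n = 2 per group), without overlap. Kmt2b read 11.2 and 12.7 against 9.19 and 10.5. Kmt2d, the enzyme of enhancer mono-methylation, read 9.87 and 11.1 against 6.99 and 11.2, so its groups overlapped. All 4 of these COMPASS-type genes have a GC content of 57 to 59.1%, and after the correction their log2 differences were -0.06, -0.02, -0.19 and -0.20 for Setd1b, Setd1a, Kmt2b and Kmt2d (limma). The sign of Kmt2d also depended on a library, at -0.09 without WT replicate 1 (limma). Setd3, whose product methylates actin on a histidine, and Setd7, a methyltransferase of histone H3 and other proteins, were lower without passing, with Setd3 at 88.1 and 89.4 against 95.1 and 100.5 and Setd7 at 17.8 and 16.6 against 17.9 and 20.9.

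Of 8 histone lysine demethylase genes listed, 4 rose (50%, against 22.0% of all listed genes) and 1 fell (12.5%, against 16.9%). With 8 genes these shares are a description and were not tested. Kdm2b (chr5:122870665-122989823) encodes a demethylase that also brings a variant Polycomb complex to CpG islands. It read 22.9 and 19.3 in SmoM2, against 13.3 and 14.1 in WT, without overlap. Its limma log2 difference was 0.59 ± 0.14 (SE), adjusted p = 0.000435 was given in the authors' deposited table, the lowest of the 48, and the difference was 0.43 after the correction. Kdm6b (chr11:69398508-69413675), which removes the repressive methylation that Polycomb places on histone H3, read 11.4 and 10.2 in SmoM2, against 6.85 and 7.46 in WT. Its log2 difference was 0.53 ± 0.15 (SE, limma) and went to 0.08 after the correction. Kdm4b (chr17:56326062-56402870), a demethylase of heterochromatin-type methylation, read 44.9 and 49.5 against 34.1 and 36.9. Its difference went from 0.40 to 0.02 with the correction (limma). Kdm8, a JmjC-domain protein of low level, read 3.71 and 4.29 against 2.20 and 2.53 and did not pass (adjusted p = 0.171, authors' deposited table).

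Kdm5c and Kdm6a are X-linked genes known to escape X inactivation in the mouse, and the libraries differed in sex-linked transcripts. Xist, the RNA of the inactive X chromosome, read 36.5 and 15.9 in SmoM2 and 20.3 in WT replicate 1, and was listed at 0 in WT replicate 2. The Y-linked genes Ddx3y and Uty read 11.9 and 4.08 in WT replicate 2 and at most 0.03 in the other libraries. Y-linked Eif2s3y did not follow that split, at 29.6 in SmoM2 replicate 1 and 36.0 in WT replicate 2 and listed at 0 in the rest. So 1 of the 2 WT libraries and neither SmoM2 library had the Xist-negative, Ddx3y-positive pattern of male tissue. Kdm5c (chrX:152233020-152274535), a demethylase of active-promoter methylation, read 20.2 and 24.1 in SmoM2, against 17.1 and 14.7 in WT, with WT replicate 2 the lowest. Kdm6a, a relative of Kdm6b, read 15.3 and 16.7 against 11.6 and 10.6, again with WT replicate 2 the lowest. Kdm5c rose (adjusted p = 0.0107, authors' deposited table), and Kdm6a did not pass, at 0.219. Without WT replicate 2 the limma log2 difference went from 0.45 to 0.34 for Kdm5c and from 0.49 to 0.43 for Kdm6a, with a single library left in the WT group. The part of sex in these values was not tested. After the GC and length correction they were 0.26 and 0.80.

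Kdm7a and Kdm3a were the demethylase genes with lower values. Kdm7a (chr6:39136623-39206789), a demethylase of repressive histone methylation, read 3.54 and 2.36 in SmoM2, against 3.49 and 5.15 in WT. SmoM2 replicate 1 and WT replicate 1 were nearly equal and the groups overlapped, although adjusted p = 0.0014 was given in the authors' deposited table. Its limma log2 difference of -0.43 ± 0.26 (SE) shrank to -0.21 when SmoM2 replicate 2 was left out and to -0.20 when WT replicate 2 was. It grew to -0.65 when SmoM2 replicate 1 was left out and to -0.66 when WT replicate 1 was, and it was -0.08 after the correction. Kdm3a, a demethylase linked to hormone and hypoxia responses, read 9.51 and 9.66 against 12.8 and 12.1 and did not pass.

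**Figure D3:**
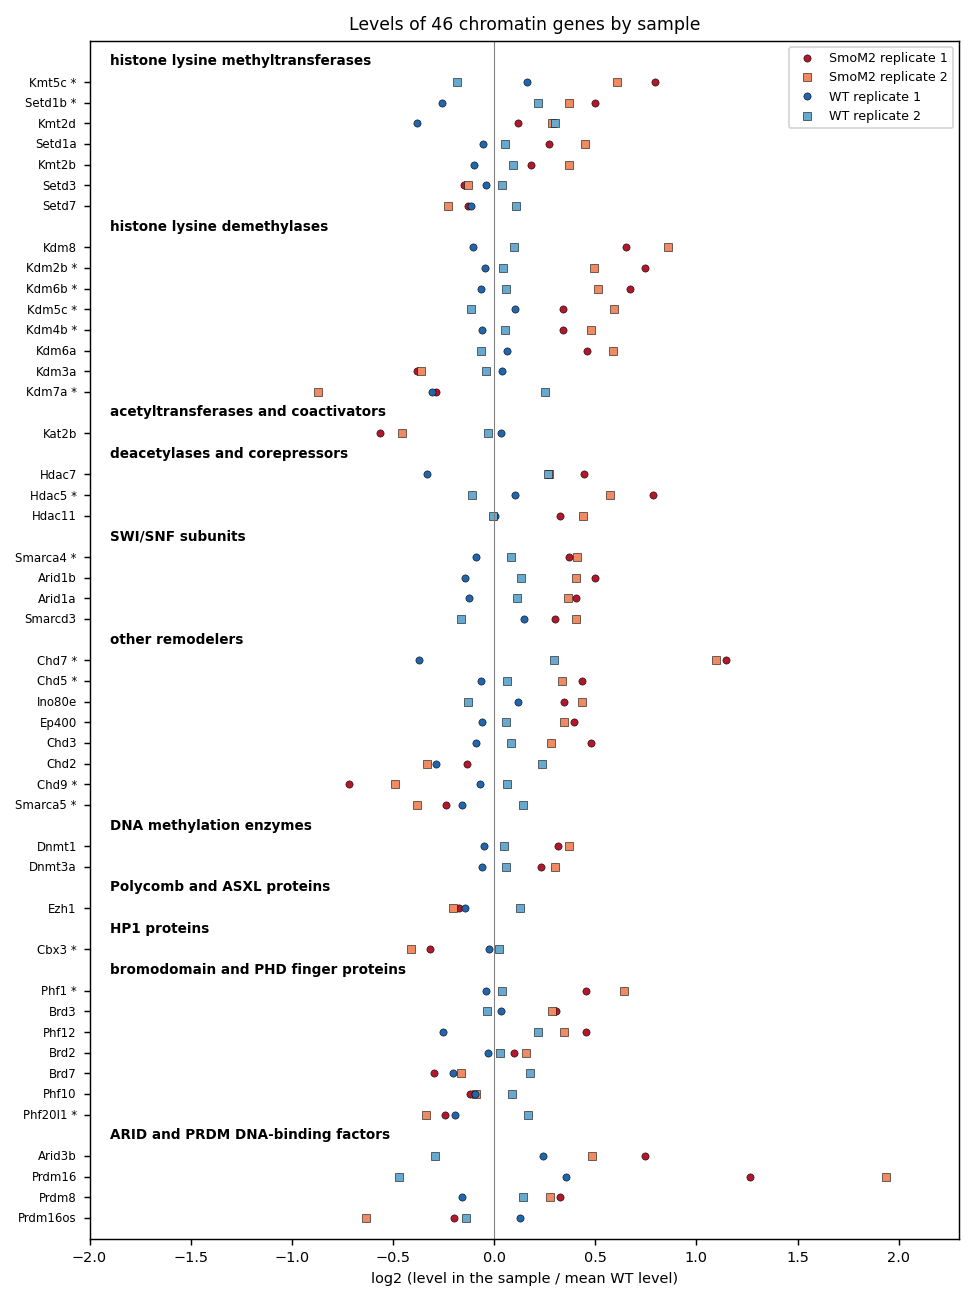
Level of each of 46 chromatin genes in each sample as log2 of its ratio to the mean WT level of that gene (x axis), grouped by role; red and orange are SmoM2, blues are WT, circles are replicate 1 and squares replicate 2. An asterisk marks genes that passed in the authors' deposited table; the levels of Kdm2b, Kdm6b and Hdac5 are separated between groups, and those of Kdm7a and Kmt2d overlap.

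The 3 histone deacetylase genes listed, Hdac5, Hdac7 and Hdac11, were all higher, and Hdac5 rose. Hdac5 (chr11:102194432-102230166), a class IIa deacetylase that shuttles between nucleus and cytoplasm, read 117 and 101 in SmoM2, against 72.7 and 62.8 in WT. The gap between the groups was larger than the spread within either. Its limma log2 difference of 0.68 ± 0.12 (SE) had the lowest limma adjusted p of the 48, 0.278, and was 0.23 after the correction. It rose (adjusted p = 0.00346, authors' deposited table).

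Hdac11 and Hdac7 did not pass. Hdac11, the class IV deacetylase, read 117 and 126 against 93.3 and 92.7, a limma log2 difference of 0.38 ± 0.09 (SE) that was 0.08 after the correction. Hdac7, a class IIa deacetylase of endothelial cells, read 9.97 and 8.84 against 5.82 and 8.81, so that SmoM2 replicate 2 and WT replicate 2 were nearly equal. Of 14 endothelial and mural markers 10 had a row, 8 were higher in SmoM2, 6 rose and 2 fell. The part of these cells in the value of Hdac7 was not tested. Kat2b, the only listed gene with a Kat name, encodes the acetyltransferase PCAF. It read 4.55 and 4.90 against 6.87 and 6.57, with no overlap, and did not pass (adjusted p = 0.159, authors' deposited table).

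SWI/SNF genes with Smarc or Arid1 names were all higher as well, 4 of 4, and Smarca4 rose. Brd7 and Phf10, subunits of the PBAF form of SWI/SNF that are grouped below by their names, were lower without passing. Smarca4 (chr9:21616169-21704230) encodes the ATPase BRG1. It read 53.5 and 55.0 in SmoM2, against 38.9 and 43.9 in WT, a limma log2 difference of 0.38 ± 0.11 (SE), and the authors' deposited table gives adjusted p = 0.0342. Arid1a and Arid1b encode the alternative large subunits of the canonical complex. Arid1a read 22.0 and 21.4 against 15.3 and 18.01, and Arid1b read 18.5 and 17.4 against 11.9 and 14.4. Smarcd3, whose product BAF60C is an accessory subunit, read 115 and 124 against 104 and 83.4. In each of the 4 genes both SmoM2 samples were above both WT samples. After the correction the log2 differences were 0.08 for Smarca4, 0.01 for Arid1a, 0.22 for Arid1b and -0.02 for Smarcd3 (limma).

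The other ATP-dependent remodelers moved in both directions: of 8 listed, 2 rose and 2 fell. Chd7 (chr4:8690406-8867659), whose mutation causes CHARGE syndrome in humans, had the largest authors' log2 fold change of the 48. It read 3.21 and 3.10 in SmoM2, against 1.12 and 1.78 in WT. The limma log2 difference was 0.78 ± 0.24 (SE), adjusted p = 0.0139 was given in the authors' deposited table, and 0.63 remained after the correction. Of 15 oligodendrocyte precursor markers, among which Chd7 is not counted, 8 had a row. Of these markers 7 were higher, 3 rose and Tnr fell. Their summed level was 627 to 653 in SmoM2 and 489 to 499 in WT. Most of that sum was Cspg5, at 415 and 407 in SmoM2, against 317 and 306 in WT. The part of precursor abundance in the value of Chd7 was not tested. In bulk tissue more cells of a type and more RNA per cell cannot be told apart, here and for the other genes.

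Chd5 and Chd3 each encode an ATPase of the NuRD complex, and that of Chd5 is neuronal. Chd5 (chr4:152338651-152390194) rose, with 67.4 and 63.1 against 47.7 and 52.1 (adjusted p = 0.0463, authors' deposited table). Chd3 was the gene of highest level among the 48, at 417 and 364 against 281 and 318, and did not pass (adjusted p = 0.138, authors' deposited table). After the correction their log2 differences went from 0.38 to -0.01 and from 0.38 to 0.05 (limma). Ep400, the ATPase of the TIP60 complex, read 12.3 and 11.9 against 8.98 and 9.76. Ino80e, a subunit of the INO80 complex, read 78.3 and 83.3 against 66.9 and 56.3, and its log2 difference of 0.39 was 0.41 after the correction (limma). Neither passed. The correction used the longest Ino80e transcript, of 5328 bases and 48.9% GC. Its longest protein-coding transcript has 1973 bases, with 58.5% GC in the coding sequence. A correction with that transcript was not run, so the corrected value of Ino80e is uncertain.

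Chd9 and Smarca5 fell. Chd9 (chr8:90828352-91054516), a CHD-family protein, read 106 and 125 in SmoM2, against 167 and 183 in WT, a limma log2 difference of -0.60 ± 0.11 (SE). It kept -0.42 after the correction, the lowest of the genes that fell. Smarca5 (chr8:80698507-80739497), the ISWI ATPase SNF2H that spaces nucleosomes, read 12.6 and 11.5 against 13.4 and 16.4. The groups were separated by less than 1, and the log2 difference of -0.28 ± 0.15 (SE) was -0.14 without WT replicate 2, -0.42 without WT replicate 1 and 0.07 after the correction (limma). Chd2, which is mutated in epileptic encephalopathy, overlapped between groups at 10.9 and 9.49 against 9.78 and 14.1, and its log2 difference went from -0.19 to 0.05 without WT replicate 2 (limma).

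**Figure D4:**
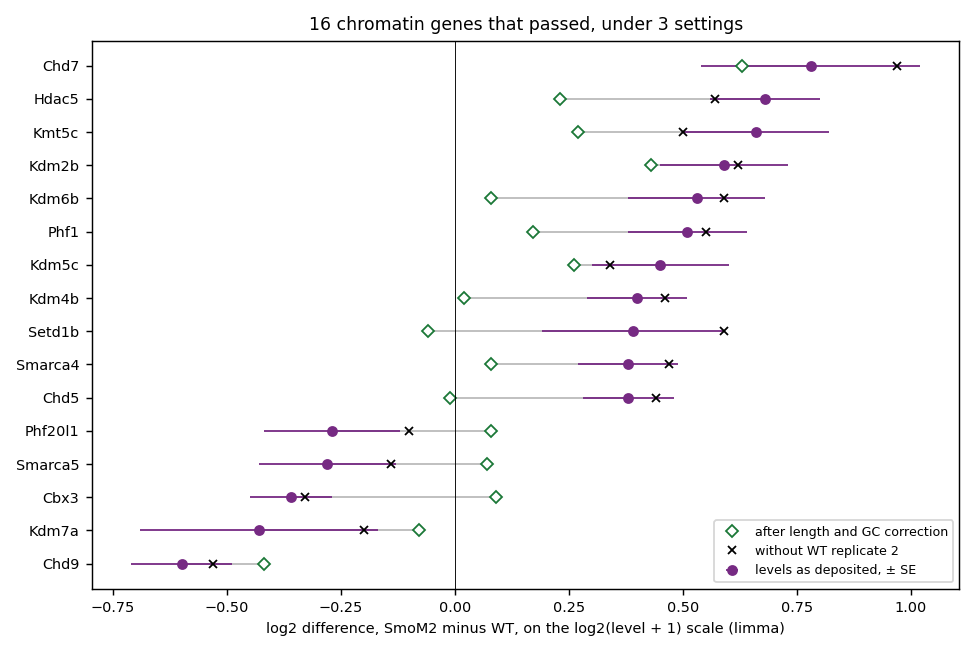
Limma log2 difference of SmoM2 minus WT on the log2(level + 1) scale (x axis) for 16 of the 18 chromatin genes that passed in the authors' deposited table. Filled circles with bars are the estimate ± SE from the levels as deposited, open diamonds the estimate after the length and GC correction and crosses that without WT replicate 2; Chd7, Kdm2b and Chd9 keep 0.63, 0.43 and -0.42 after the correction, and Setd1b, Chd5, Phf20l1, Smarca5 and Cbx3 change sign.

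DNA methylation was represented by its methyltransferases. Dnmt1, the maintenance enzyme, read 21.1 and 21.9 in SmoM2, against 16.4 and 17.5 in WT. Dnmt3a, a de novo enzyme that is abundant in postnatal neurons, read 63.5 and 66.7 against 51.9 and 56.3. Neither passed, with adjusted p-values of 0.211 and 0.41 in the authors' deposited table, although their levels did not overlap. Their limma log2 differences of 0.33 ± 0.12 and 0.26 ± 0.10 (SE) went to 0.10 and 0.09 after the correction.

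Ezh1, a Polycomb methyltransferase, read 16.1 and 15.8 against 16.4 and 19.8 and did not pass (adjusted p = 0.175, authors' deposited table). It is 51.2% GC, and its log2 difference was -0.17 before and -0.24 after the correction (limma). Cbx3 (chr6:51470360-51483704), which encodes HP1 gamma, a reader of heterochromatin methylation, fell. It read 105 and 97.9 in SmoM2, against 128 and 133 in WT, with the groups well apart. The limma log2 difference was -0.36 ± 0.09 (SE) and the authors' deposited table gives adjusted p = 0.00395. Cbx3 is the most GC-poor of the 48 at 38.7%, and the difference was 0.09 after the correction.

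Of 7 bromodomain and PHD finger genes, Phf1 rose and Phf20l1 fell. Phf1 (chr17:26933052-26937908), an accessory subunit of Polycomb repressive complexes that reads histone methylation, had levels of 16.4 and 18.7 in SmoM2 and 11.7 and 12.3 in WT. Its limma log2 difference was 0.51 ± 0.13 (SE), adjusted p = 0.0168 was given in the authors' deposited table, and 0.17 was left after the correction. Phf20l1 (chr15:66577560-66647976), a reader of methylated lysine, read 20.4 and 19.2 against 21.2 and 27.2, so that most of its gap lay in WT replicate 2. The log2 difference of -0.27 went to -0.10 without that library, to -0.44 without WT replicate 1 and to 0.08 after the correction (limma). Brd2 and Brd3 encode BET proteins, which bind acetylated histones. Brd2 read 211 and 220 against 194 and 202 and Brd3 read 23.6 and 23.2 against 19.5 and 18.6, both without passing. Phf12, a subunit of a SIN3 deacetylase complex, read 23.6 and 21.9 against 14.5 and 20.0. Brd7 and Phf10, both subunits of the PBAF form of SWI/SNF, overlapped between groups, with Brd7 at 34.7 and 38.1 against 37.1 and 48.2 and Phf10 at 32.2 and 32.8 against 32.7 and 37.2.

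Among DNA-binding factors of the ARID and PRDM families none of 4 passed. Prdm16 (chr4:154316125-154636873), which keeps neural progenitors and defines brown fat, read 5.27 and 8.40 in SmoM2, against 2.80 and 1.58 in WT. Its limma log2 difference of 1.29 ± 0.29 (SE) was the largest of the 48 and was 1.07 after the correction. The authors' deposited table nevertheless has 0.52 as its log2 fold change, with an adjusted p of 0.178. Prdm16os read 3.80 and 2.81 against 4.76 and 3.96, the opposite direction. Its exons do not overlap those of Prdm16. Exons of Prdm16 do overlap another gene on the other strand, as exons of 27 of the 48 overlap some annotated gene, and the sources used here do not say whether reads were counted by strand, so such pairs cannot be told apart. Prdm8, a transcriptional repressor, read 28.9 and 28.0 against 20.7 and 25.5, and Arid3b read 2.57 and 2.14 against 1.81 and 1.25.

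Partners of the same complexes, from 11 lists of genes whose names fall outside the pattern, were found in both directions. Of 251 such genes, 75 had a row, 40 were higher and 35 lower, 17 rose and 10 fell. These shares, 53.3% higher, 22.7% rising and 13.3% falling, were near those of all 5282 listed genes (53.2%, 21.3% and 16%), so the counts by list below are descriptions and show nothing particular to these complexes. On the list of other histone methyltransferases all genes with a row were higher, 8 of 8, and 6 rose. Ezh1 and Prdm9, histone methyltransferases whose names fall inside the pattern, are not on that list and were lower. Prmt2, an arginine methyltransferase, had a mean of 83.8 ± 0.714 under SmoM2 and 52.8 ± 1.92 under WT (SD, n = 2 per group). Smyd1, a methyltransferase best known from muscle, averaged 4.62 ± 0.361 and 2.41 ± 0.679. SWI/SNF partners were also all higher, 6 of 6, and Bcl7c rose. Among COMPASS partners Men1, the menin gene, and Pagr1a rose out of 5 listed. Pagr1a was listed at 0 in WT replicate 1 and at 4.51 in WT replicate 2, so no fold is given for it.

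Other partner lists were mixed or had more lower genes. Histone chaperones and related genes were lower in 8 of 9 listed, Nap1l2 fell and Cabin1 rose. Polycomb partners were lower in 6 of 10 listed. L3mbtl1, a reader of methylated histones, and Pcgf2, a Polycomb ring finger protein, rose, with L3mbtl1 at 6.98 ± 0.488 in SmoM2 and 3.65 ± 0.799 in WT (SD, n = 2 per group). Rnf2, another Polycomb ring finger protein, passed as lower although its groups overlapped. Deacetylase partners were lower in 6 of 10 listed: Sirt2, Sap18 and Tbl1xr1 fell, and the NuRD gene Mbd3 rose. Sirt2 is also a gene of myelinating oligodendrocytes. Of 6 acetyltransferase partners Usp22 rose and Hat1 and Ing2 fell, and of 8 remodeler partners Znhit1 rose and Uchl5 fell. Among 7 silencing genes Adnp and Hmga1 rose and Hmgn5 fell. None of 4 readers of methylated DNA passed, and the pass among other demethylases was Y-linked Uty. The median GC content was 55.2% for the other methyltransferases and 43.1% for the chaperones. After the correction Adnp and Prmt2 had log2 differences of 0.71 and 0.43, and Rnf2 went from -0.09 to 0.35 (limma).

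Promoters of the higher and the lower genes were close in base composition. RefSeq promoter windows (GRCm38.p6) were found for 38 of the 48 genes, with 60 annotated starts. In the 250 bases before the start, the median number of CpG dinucleotides was 21.5 over 42 windows of higher genes and 25.5 over 18 windows of lower genes. The median GC content of these windows was 67.4% and 67.6%. The part of each window from 250 to 51 bases before the start is printed for 2 genes that rose, Hdac5 (chr11:102230223-102230422, minus strand) and Smarca4 (chr9:21615919-21616118, plus strand), and for 2 that fell, Kdm7a (chr6:39206824-39207023, minus strand) and Smarca5 (chr8:80739510-80739709, minus strand). CpG dinucleotides are in capitals, 9 in Hdac5, 17 in Smarca4, 44 in Kdm7a and 27 in Smarca5. The pairs were chosen after the counts were seen, to show CpG-rich promoters in front of GC-poor transcripts.
Hdac5: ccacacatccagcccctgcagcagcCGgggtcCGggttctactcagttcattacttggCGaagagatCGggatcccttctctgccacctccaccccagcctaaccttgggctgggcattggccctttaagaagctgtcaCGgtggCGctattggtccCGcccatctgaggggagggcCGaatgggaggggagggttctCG
Smarca4: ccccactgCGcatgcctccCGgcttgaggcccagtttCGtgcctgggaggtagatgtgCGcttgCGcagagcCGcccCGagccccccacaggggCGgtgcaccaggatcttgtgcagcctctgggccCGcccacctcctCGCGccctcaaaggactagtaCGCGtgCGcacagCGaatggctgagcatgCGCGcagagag
Kdm7a: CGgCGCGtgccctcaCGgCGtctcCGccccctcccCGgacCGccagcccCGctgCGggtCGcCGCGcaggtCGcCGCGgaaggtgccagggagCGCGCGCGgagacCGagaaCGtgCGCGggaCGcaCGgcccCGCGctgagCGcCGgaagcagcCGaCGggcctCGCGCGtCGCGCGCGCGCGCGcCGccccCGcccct
Smarca5: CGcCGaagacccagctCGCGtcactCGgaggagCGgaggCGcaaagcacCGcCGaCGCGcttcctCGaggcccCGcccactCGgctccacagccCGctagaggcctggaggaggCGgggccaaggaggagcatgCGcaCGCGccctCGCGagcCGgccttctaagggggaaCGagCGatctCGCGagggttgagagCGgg

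The consensus of the GLI factors that act downstream of Smoothened, GACCACCCA, was searched on both strands of the same 250 bases. It was absent from the 60 windows of the chromatin genes and present in 0.225% of the 32851 windows of all genes. The absence says only that these letters are not in these windows.

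The tissue itself differed between the groups, and the chromatin genes are read in that setting. Genes of mature oligodendrocytes were lower in 15 of 15 listed and 14 fell, with a summed level of 3085 to 3482 in SmoM2 and 6063 to 6450 in WT. Markers of immature neurons and progenitors were higher in 11 of 11 and 5 rose (3118 to 3127 against 1949 to 1966). Tubb2b, Tubb3 and Stmn2 made up most of this sum, and Stmn2 did not pass. Cycling-cell genes were higher in 12 of 12 and 1 rose (50.5 to 56.8 against 32.9 to 33.7). Meningeal fibroblast genes rose in 11 of 11 (1894 to 1943 against 425 to 1052). Most of that sum was Ptgds, at 1641 and 1727.5 in SmoM2, against 933 and 313 in WT. Blood genes fell in 6 of 6 (65.6 to 120 against 450 to 662) and choroid plexus genes were lower in 8 of 8, 6 of which fell, with 153 to 727 against 1368 to 1403. Ttr alone read 71.2 and 618 in SmoM2, against 1203 and 1162 in WT. Microglial genes were higher in 5 of 6 (388 to 420 against 307 to 310), astrocyte genes in 2 of 5 (1191 to 1276 against 1282 to 1402) and mature neuron genes in 1 of 3 (1827 to 1844 against 2070 to 2477). Slc4a1, a red cell gene, was at 0 in SmoM2 replicate 1, and no other listed marker of these types was at 0 in any library. The part of these shifts in the values of the chromatin genes was not tested.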

How the data were processed

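RNA-seq libraries (Illumina TruSeq, 1 ug of total RNA, per the labels' protocols) came from 2 SmoM2 and 2 WT samples. Per the submitters' processing notes, the tools include RSEM and DESeq2 and the build is GRCm38.p6; their versions and the steps they served are not given in the sources used here. The authors' deposited table gives each gene an expression level per sample, a signal with 2 decimals (TPM or FPKM: not given in the sources used here). Fold changes (as a ratio and as log2) and p-values, raw and adjusted, stand beside the levels as the authors' own. It lists 5282 genes, the highest p being 0.049997; the fold-change minimum that the series text names was not applied to it. Depth per sample is unknown, since there are no counts; levels of the listed genes summed to 469062 to 512833. Columns were tied to samples by the series text.

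A gene was called at the authors' adjusted p of at most 0.05. limma 3.58.1 (R 4.3.3) was fitted, with a mean-variance trend, to log2(level + 1) of genes that averaged 1 or more over the samples (4845 genes), and adjusted over the 57010 tests that the authors' adjusted p-values imply. This scale understates changes of low genes, and refitting a selected list is a recalculation. The design allows no exact permutation p below 0.333 (2 against 2, two-sided), so none was run. GC content and length come from the longest GENCODE M21 transcript, protein-coding or not, found for 98.9% of listed genes. The correction removed each library's spline trend on both (4 degrees of freedom each). The steps were also run on simulated data, with the same spread for every gene and adjustment over 4845 genes rather than 57010 tests. The fit called 25 of 50 simulated log2 differences of 0.5 there, and 50 of 50 of 1. As the setting differs, these counts do not give the sensitivity of the fit in the real data.

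The members, role groups, 11 partner lists and 12 marker lists were chosen with earlier results of these data known. The naming rule took up to 4 called, non-overlapping members per role group, the highest and lowest members and up to 2 partner genes per list; 2 of the 48 members are counted in totals but not reported here singly, the text names the others, and partner genes beyond 2 per list, Rnf2 among them, were chosen after their values were seen. Replicate numbers do not pair the samples. Coordinates are 1-based.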

Additional observations from a re-analysis of the deposited data

How the results depend on the processing

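Of the 48 genes, all kept the sign of their log2 difference (limma) with pseudocounts of 0.1 and 5, equal sample medians and quantile normalization. Signs were also kept with no minimum in the fit, with the replicate block, and for the 42 genes that averaged at least 5. Those settings cannot change a gene's own estimate in this balanced design, so the kept signs there are not a test. The median over the 48 was 0.35 and became 0.26 with equal sample medians, 0.26 with quantile normalization, 0.25 with a pseudocount of 5 and 0.08 with the length and GC correction, alone or with the replicate block. Quantile normalization lowered the median of all genes by 0.13, from 0.25. Leaving out 1 library gave 0.28 to 0.38. The lowest, 0.28, was without WT replicate 1. With the authors' adjusted p at 0.01, 4 genes rose and 2 fell. The share of all listed genes at that threshold is not given, so these counts cannot be read as high or low. limma adjusted p-values called 0 in either direction, also with the replicate block and without each library in turn (these, and the count of separated levels after the correction, were chosen after seeing the data). Separated levels numbered 19 in the higher direction after the length and GC correction, again without a share over all listed genes.

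With the correction, alone or with the replicate block, 14 log2 differences changed sign, among them Brd2 to -0.22, Cbx3 to 0.09, Chd5 to -0.01, Hdac7 to -0.11, Kmt2b to -0.19, Kmt2d to -0.20, Phf10 to 0.26, Phf20l1 to 0.08, Setd1a to -0.02, Setd1b to -0.06, Setd3 to 0.08, Smarca5 to 0.07 and Smarcd3 to -0.02. The correction takes out what follows GC content and length of the longest transcript, and no other cause was tested. For Phf10 that transcript has 3901 bases at 42.4% GC. Its longest protein-coding transcript has 1663 bases and 47.8% GC in the coding sequence, so its corrected value is uncertain too. Without a library, Chd2 ranged from -0.43 to 0.05, the latter without WT replicate 2, and Kmt2d from -0.09, without WT replicate 1, to 0.52. The replicate block, which cannot move the estimates in this balanced design, left the median at 0.35. It took the limma calls over all genes from 6 to 20, none of them among the 48. Same-numbered samples did not deviate together (r = -0.093 over 4845 genes). Without counts, what depth limits is unknown.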

Other observations

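The authors' fold changes differed in size from the ratios of mean levels in the same table. On the log2 scale the ratio was the larger in size for 33 of the 48 chromatin genes, the authors' fold change for 14, and 1 was equal to 2 decimals. Prdm16 had a log2 ratio of mean levels of 1.64 and 0.52 as the fold change (log2) of the authors' deposited table. Chd7 had 1.12 and 0.78, and Hdac5 had 0.68 and 0.42. Chd9 had -0.60 and -0.37. Kdm6a had 0.52 and 0.33. In the other direction, Phf10 had -0.10 and -0.29, Hdac7 had 0.36 and 0.51, and Kmt2d had 0.20 and 0.32. The sign was the same by both measures for all 48. The cause of these gaps was not tested.

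Prdm9, the meiotic histone methyltransferase that places recombination sites, lay under the level rule and fell. Its SmoM2 levels were 0.27 and 0.33 and its WT levels 1.35 and 1.25, and the authors' deposited table gives adjusted p = 0.0304. Prdm6, below it in level, read 0.95 and 0.53 in SmoM2 and 0.14 in WT replicate 1, was listed at 0 in WT replicate 2, and did not pass.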
